A study of Mus musculus with 11 samples.

Results

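The 10 genes described here encode enzymes of glycolysis and lactate formation, namely the hexokinases Hk1 and Hk2, the phosphofructokinase Pfkp, the aldolases Aldoa and Aldoc, Gapdh, Pgk1, the pyruvate kinase Pkm, and the lactate dehydrogenase subunits Ldha and Ldhb. They were taken by name, 10 of the 25311 genes in the count table, and were followed in retinal cell classes and in 4 groups of mice. Single cells of the retina of C57BL/6J mice at postnatal day 10 (P10) were captured in droplets with inDrop, in which unique molecular identifiers (UMIs) stand for RNA molecules. Control mice were injected with PBS (n = 3 mice), and their littermates with streptozotocin (STZ), a toxin of pancreatic beta cells that causes hyperglycemia and delayed retinal vessel growth (Phase I ROP, n = 3 mice). A second set of mice, all given STZ and described as littermates, was nursed by dams on a diet. The diet held ω-3 long-chain polyunsaturated fatty acids (LCPUFA, n = 2 mice) or ω-6 LCPUFA (n = 3 mice). Which dam nursed which pup is not stated, so diet and dam cannot be told apart. Per the paper's methods, litters given STZ were kept smaller than litters without STZ. Both sexes were used, STZ acts on the whole animal, and no group combined a LCPUFA diet with PBS.

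Glycolysis splits glucose to pyruvate, and lactate dehydrogenase turns pyruvate into lactate. The retina, above all its photoreceptors, forms lactate even when oxygen is present, and several steps have isozymes that different cells use. Hk1 is the widespread hexokinase and Hk2 the one induced by insulin and hypoxia, Aldoc is the aldolase of brain and glia, and Ldhb forms the lactate dehydrogenase of tissues that consume lactate.

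The libraries held 2565568 to 6517776 UMIs per mouse, and 20033 cells with more than 300 genes were kept. Clusters were named from marker genes and gave 9980 rods, 3452 amacrine cells, 3410 bipolar cells, 1395 Müller glia and 1100 cones, while 2590 of the rods sat in clusters with no rod marker among their 10 leading genes. These clusters held 45.6% (39.5 to 59.8% per mouse) of the rods of control mice and 14.9% (10.7 to 18.2% per mouse) in Phase I ROP, while for the ω-3 group it was 23.4% (22.6 to 24.6% per mouse) and for the ω-6 group 32.4% (25.7 to 34.6% per mouse), so the rods of the groups sat partly in different clusters. Cones were few in control mice, with 13 to 46 cells per mouse. Of 18872 distinct cell barcodes, 1157 occurred in more than 1 library, and cells were kept apart by library. Control libraries stood apart from the other 8. Over all cells the noncoding RNA Rn7sk was at 193 to 290.2 CPM in control mice and at 1.15 to 16.2 CPM elsewhere, the mitochondrial ribosomal RNA mt-Rnr2 at 28190 to 41190 CPM against 3060 to 8232 CPM, and Fosb, an early response gene, at 0.39 to 0.89 CPM against 116 to 231 CPM. These differences move with STZ against PBS, so library preparation and treatment cannot be told apart in that comparison, and the part of either in any result below was not tested.

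Levels are given as scaled CPM, the count of a gene relative to the UMIs of the tested genes of a class in a mouse, scaled by TMM within each comparison. Tested genes held a smaller part of the UMIs in cones and Müller glia, which raises scaled CPM there. In Phase I ROP replicate 1 they held 161945 of 213432 UMIs in cones, 269564 of 320290 in Müller glia and 919244 of 956801 in amacrine cells. An order of close levels that involves cones or Müller glia can therefore depend on the denominator. The order of the classes is a description without a test, since the classes were clustered from the same cells, and values are the median over 11 mice with the range. As 8 of the mice had STZ, the order within control mice is given where it differed in its first or last class. Hk2 stood out in cones. Its level was 172 CPM (109 to 343) in cones, and its range there lay above the ranges of rods, Müller glia, bipolar cells and amacrine cells, whose medians were 11.9 to 16.6 CPM. Hk1, which catalyzes the same first step, followed another order, with rods at 343 CPM (90.9 to 472), cones at 314 CPM (63.8 to 454), bipolar cells at 231 CPM (106 to 273), amacrine cells at 159.8 CPM (85.5 to 244) and Müller glia at 53.8 CPM (0 to 95.9). In control mice alone this order was not seen, with means of 122 ± 14 CPM (SD, n = 3) in bipolar cells, 104 ± 38.4 CPM in cones, 103 ± 11.5 CPM in rods, 97.5 ± 13.5 CPM in amacrine cells and 17.5 ± 16.6 CPM in Müller glia. Over all mice rods and cones did not separate, since Hk1 was higher in rods in 7 of 11 mice, whereas amacrine cells were above Müller glia in 11 of 11 mice. Among the UMIs of both hexokinases, Hk2 took 41.1% (26.9 to 71.4%) in cones, 26.5% (10.6 to 45.8%) in Müller glia, 7.23% (1.41 to 11.9%) in amacrine cells, 5.66% (0.99 to 12.2%) in bipolar cells and 5.34% (1.29 to 13.9%) in rods. The share in Müller glia rests on 263 UMIs over all mice, and 1 control mouse had none of either gene there. Shares are in UMIs not divided by transcript length, so they compare classes and mice, not the amounts of the isozymes.

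Pfkp, the platelet type of phosphofructokinase, the enzyme that commits sugar to glycolysis, was led by Müller glia at 194 CPM (148 to 363), above the range of bipolar cells at 101 CPM (73.5 to 120.3). Amacrine cells followed at 77.5 CPM (43.3 to 109.8), cones at 41.8 CPM (23.7 to 218) and rods at 33.3 CPM (24.6 to 95.5), and the ranges of these neighbours overlapped. Within control mice amacrine cells were lowest, at 49.5 ± 6.44 CPM (SD, n = 3) against 60 ± 31 CPM in rods. Aldoc had its highest level in Müller glia, apart from all other classes. It was at 770.1 CPM (493 to 1178) in Müller glia, at 104 CPM (48.4 to 143) in amacrine cells and at 24.1 CPM (13.6 to 57.3) in bipolar cells, where it was lowest. Aldoa, the aldolase of muscle and most other tissues, had medians from 276 CPM (155 to 365) in Müller glia to 415 CPM (327 to 580.3) in cones, and each neighbour in the order overlapped the next. Aldoc took 71.1% (64.1 to 84%) of the aldolase UMIs in Müller glia, 25.2% (13.8 to 30.7%) in amacrine cells, 11.5% (0 to 17.6%) in cones, 10.8% (8.73 to 16.1%) in rods and 7.86% (4.71 to 15.5%) in bipolar cells. Aldoc was also the only 1 of the 10 genes among the 2000 variable genes used for clustering, and with all glycolysis genes left out of the clustering its median share in Müller glia was 71.4%.

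Gapdh, which oxidizes glyceraldehyde 3-phosphate, had medians from 2013 CPM in rods to 2620.1 CPM in bipolar cells over all mice, and each neighbour in the order overlapped the next. In control mice the classes lay further apart, from 2537 ± 189 CPM (SD, n = 3) in Müller glia and 2918 ± 101 CPM in rods to 4171 ± 912 CPM in cones and 4693 ± 112 CPM in bipolar cells. Pgk1, which yields the first ATP of the pathway, was led by Müller glia at 627 CPM (445 to 1089), ahead of bipolar cells in 11 of 11 mice at 369 CPM (286 to 721). Rods were lowest for Pgk1 at 195 CPM (169 to 360.1). Pkm, the last step to pyruvate, split the classes into 2 sets. It was at 1425 CPM (1088 to 1791) in cones, 1273 CPM (1047 to 1652) in rods and 1253 CPM (1061 to 1429) in bipolar cells, and at 648 CPM (492 to 854) in Müller glia and 591 CPM (520.1 to 709.6) in amacrine cells, and the ranges of the sets did not meet. Within control mice the sets were the same, with bipolar cells first at 1327 ± 91.6 CPM (SD, n = 3) and Müller glia last at 614 ± 108 CPM.

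The lactate dehydrogenase subunits were highest in different classes. Ldha was highest in photoreceptors, with 1334 CPM (1147 to 1857) in rods and 1234 CPM (944 to 1995) in cones, which did not separate. In control mice cones had the higher mean in scaled CPM, an order not seen when all UMIs of the class are the denominator. The other classes had 723 CPM (552 to 1496) in Müller glia, 498 CPM (301 to 878) in bipolar cells and 432 CPM (341 to 751) in amacrine cells. Ldhb was highest in Müller glia at 248 CPM (159.8 to 464) and in amacrine cells at 144 CPM (88 to 272), in this order in 11 of 11 mice, and was at 48 CPM (0 to 125) in cones, 41.7 CPM (28.9 to 67) in bipolar cells and 37.5 CPM (21 to 99.2) in rods. Within control mice rods were not the lowest, at 79 ± 17.5 CPM (SD, n = 3) against 57.6 ± 13.8 CPM in bipolar cells. The share of Ldhb was 25% (19.2 to 27.9%) in Müller glia and 24.9% (20.2 to 30.8%) in amacrine cells, and 7.93% (4.54 to 10.7%) in bipolar cells, 3.69% (0 to 8.79%) in cones and 2.9% (1.55 to 7.83%) in rods. Summed over the 10 genes, the enzymes took 0.393 to 0.686% of the UMIs of a class in a mouse. Rod markers were also counted in other classes. The ratio of their share of UMIs there to that in rods was 5.15 to 11.6% in bipolar cells, 2.01 to 9.17% in amacrine cells and 1.92 to 9.37% in Müller glia, and no median share by class moved by more than its spread over mice (1 SD) once rod RNA in that ratio was subtracted.

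**Figure D1:**
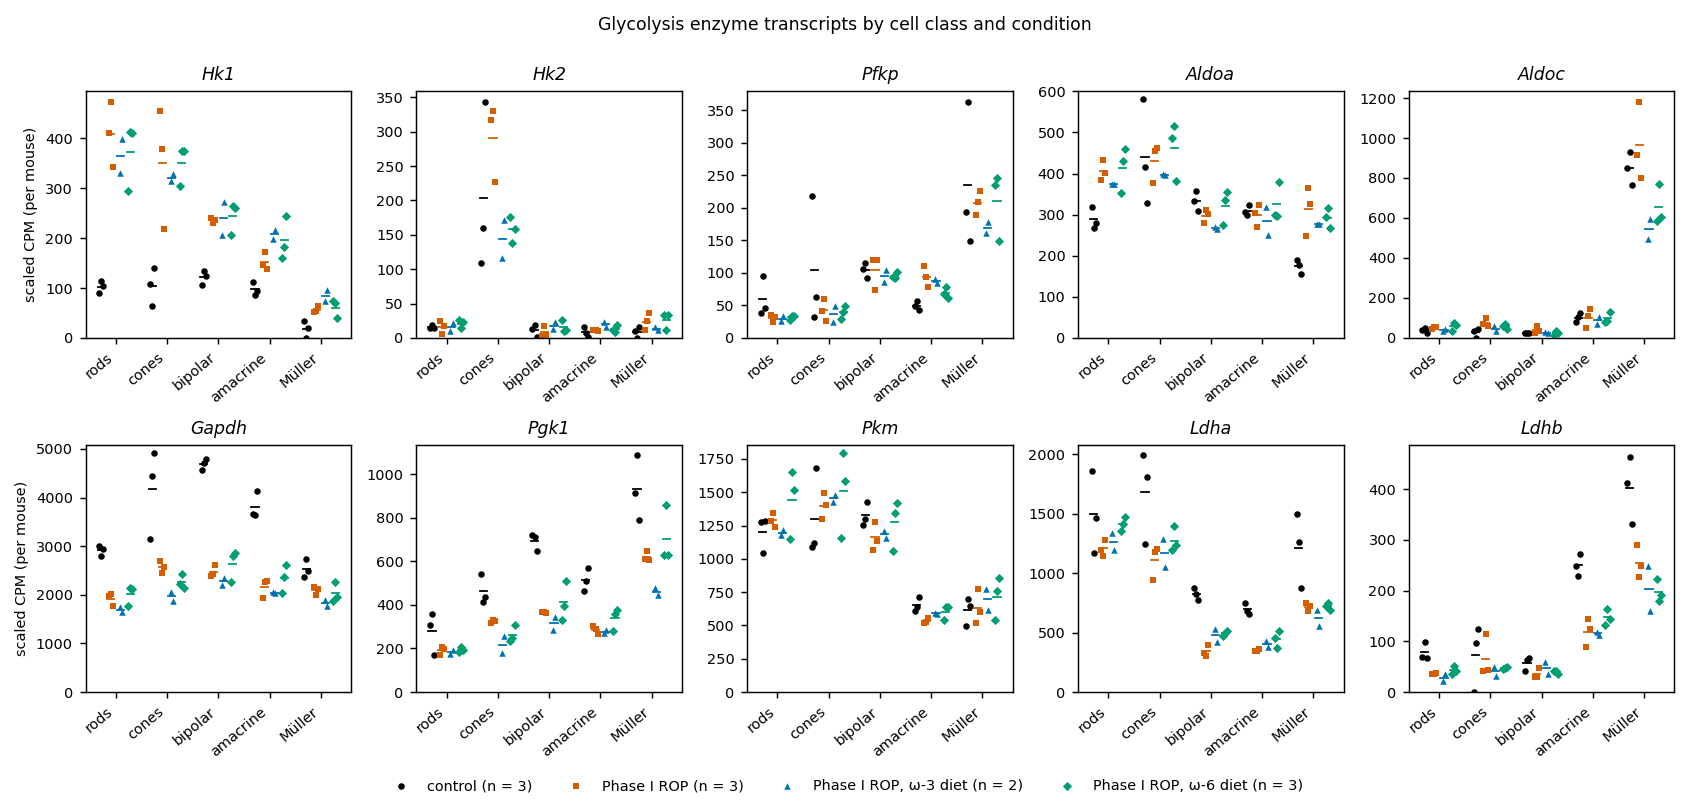
Scaled CPM of the 10 glycolysis enzyme genes (vertical axes, linear from 0) in 5 retinal cell classes (horizontal axes), with 1 point per mouse coloured by group and a line at the group mean. Hk2 is high in cones, Aldoc, Pfkp and Ldhb in Müller glia, and Ldha in rods and cones, and in the Hk1 panel the control mice lie below the Phase I ROP mice in every class.

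**Figure D2:**
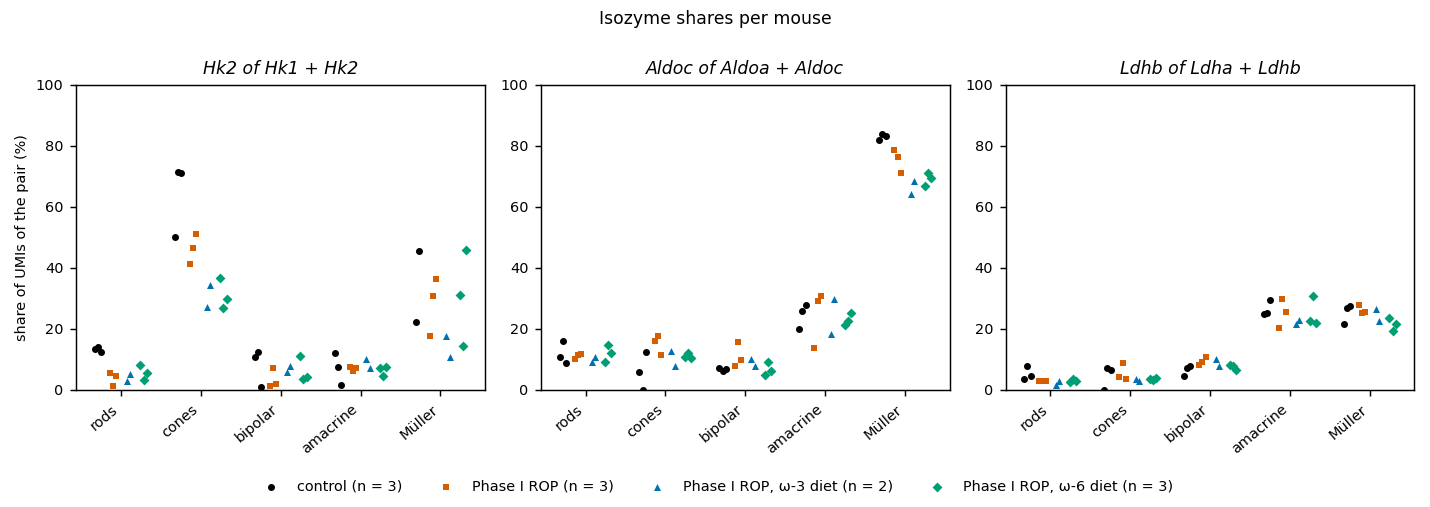
Share of Hk2, Aldoc and Ldhb in the UMIs of their isozyme pair (vertical axis, percent) by cell class, with 1 point per mouse coloured by group. Aldoc takes 64.1 to 84% in Müller glia and no more than 30.7% in any mouse of the other classes, and Hk2 takes 26.9 to 71.4% in cones.

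Rarer classes were summed over all 11 mice and have no replicate check. Intervals of such sums are exact Poisson intervals and cover counting error only. Astrocytes (47 cells) had the highest Aldoc level, 2680.0 CPM (95% interval 2491 to 2879), against 61.7 CPM (95% interval 49.5 to 75.9) in retinal ganglion cells (98 cells) and 4.39 CPM (95% interval 0.905 to 12.8) in endothelial cells (115 cells). Hk2 was at 121 CPM (95% interval 72.7 to 189) in microglia (58 cells), from 19 UMIs. In retinal ganglion cells it was at 4.16 CPM (95% interval 1.53 to 9.05), and endothelial cells had 0 Hk2 UMIs of 683928, which has an upper 95% limit of 5.39 CPM. Ldhb was at 394 CPM (95% interval 302 to 505) in microglia and 228 CPM (95% interval 182 to 282) in horizontal cells (31 cells), and horizontal cells had the highest Gapdh level of the rare classes at 4577 CPM (95% interval 4362 to 4799). These CPM are relative to all UMIs, without TMM.

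To ask how Phase I ROP bears on these enzymes, STZ-treated mice were compared with control littermates in each class. Hk1 was higher in Phase I ROP in rods, cones, bipolar cells and amacrine cells. Gapdh was lower in the same 4 classes, Pgk1 and Ldha were lower in bipolar cells, amacrine cells and Müller glia, and Ldhb was lower in rods and amacrine cells. Pfkp rose in amacrine cells and Aldoa in Müller glia. Pkm, Aldoc and Hk2 passed the test in no class where they were tested, by the quasi-likelihood test of edgeR with adjustment after Benjamini-Hochberg, or by DESeq2. Hk2 in rods, bipolar cells and Müller glia, and Aldoc and Pfkp in cones, had too few UMIs for the test. Aldoc in cones was at 0 to 46.7 CPM in control mice, from 0 to 3 UMIs, and at 59.8 to 97.2 CPM in Phase I ROP, without overlap. Of these 3 genes only Pkm in amacrine cells had an unadjusted p under 0.05, at -0.29 ± 0.12 on the log2 scale, and with plain totals Aldoc passed in bipolar cells (1.07, adjusted p = 0.0256). Of 50 pairs of gene and class 45 could be tested, of which 6 were called higher and 12 lower at an adjusted p under 0.05.

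These counts stood against a large change over all genes. In rods 1 of 9 tested members was higher and 2 were lower, where 21% of 8165 genes were called higher and 22.5% lower. Cones had 1 of 8 higher (10.6% of 3127 genes) and 1 lower (8.35%). For bipolar cells the counts were 1 of 9 higher (21.6% of 9718 genes) and 3 lower (23.4%), and for amacrine cells 2 of 10 higher (18.2% of 11155 genes) and 4 lower (20.7%). Müller glia had 1 of 9 higher (6% of 4834 genes) and 2 lower (5.19%). The median log2 fold change of the tested members was -0.31 for rods (all genes tested 0.02), -0.18 for cones (0.09), -0.19 for bipolar cells (0.03), -0.17 for amacrine cells (0.02) and -0.10 for Müller glia (0.01). Scaling bears on the split. With plain totals in place of TMM, an alternative chosen after seeing the data, the median of all genes moved to 0.16 in Müller glia and 0.30 in rods, and for bipolar cells to 0.43, for cones to 0.41 and for amacrine cells to 0.37, and the members were called higher in 8 and lower in 8 pairs of gene and class.

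Among the 10 genes Hk1 showed the largest rise. In rods it was at 90.9, 114 and 104 CPM in the control mice and at 412, 472 and 343 CPM in the Phase I ROP mice, which did not overlap (log2 fold change 1.98 ± 0.23, adjusted p = 8.39e-06). In cones the values were 109, 63.8 and 140.2 CPM against 454, 378 and 218 CPM, the control values resting on 3, 2 and 9 UMIs (1.62 ± 0.45, adjusted p = 0.0148). Bipolar cells went from 106, 134 and 124 CPM to 241, 231 and 237 CPM (0.96 ± 0.16, adjusted p = 0.000299). The groups were again apart in these classes. Amacrine cells had 112, 85.5 and 94.8 CPM in control and 146, 172 and 138 CPM in Phase I ROP (0.64 ± 0.17, adjusted p = 0.00814), and without STZ replicate 2 the call was lost (0.55). In Müller glia Hk1 was at 33.1, 0 and 19.3 CPM against 52.7, 53.8 and 63.2 CPM, from 0 to 14 UMIs, and the difference missed the threshold (1.48 ± 0.56, adjusted p = 0.101). The call in rods, cones and bipolar cells was kept in every alternative in which the gene was tested, with log2 fold changes of 1.21 to 2.38 in rods. No transcript near-identical to Hk1 was found in the table. For Hk2, too few UMIs remained for a test in rods, bipolar cells and Müller glia, and in cones it was at 109, 159.5 and 343 CPM against 317, 329.5 and 226 CPM, which overlapped (0.32 ± 0.38, adjusted p = 0.594).

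Within the hexokinase pair, Hk2 took 13.3%, 13.9% and 12.2% of the UMIs in control rods and 5.58%, 1.29% and 4.61% in Phase I ROP rods, without overlap. An exact permutation test over 3 against 3 mice cannot go below p = 0.1, which was the value here (two-sided, adjusted p = 0.3 over 15 combinations of pair and class). In cones the shares were 50%, 71.4% and 71% against 41.1%, 46.6% and 51% (exact permutation p = 0.2, adjusted p = 0.429). The control shares rest on few UMIs, with Hk2 at 4 of 30, 5 of 36 and 6 of 49 in rods. In control cones Hk2 had 3 of 6, 5 of 7 and 22 of 31 UMIs, so these shares carry large counting error.

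Pfkp rose in amacrine cells and not in rods. Amacrine cells had 49.1, 56.2 and 43.3 CPM in control and 109.8, 94 and 78.8 CPM in Phase I ROP (0.92 ± 0.21, adjusted p = 0.00305), while rods had 38.5, 95.5 and 46.1 CPM and 35, 24.6 and 31.4 CPM, which missed the threshold (-0.93 ± 0.38, adjusted p = 0.0565). Both contrasts were without overlap. The UMIs of Pitrm1, a gene with an overlapping transcript, came to 18.1% of those of Pfkp, and with them added rods passed the threshold (-0.86, adjusted p = 0.0493). Aldoa rose in Müller glia from 189, 177 and 155 CPM to 249, 365 and 325 CPM (0.85 ± 0.24, adjusted p = 0.0285), a call that was lost when any 1 of 5 of the 6 mice was left out (0.73 to 1.00) and under DESeq2 (adjusted p = 0.102). In rods Aldoa was at 318, 268 and 279 CPM against 384, 432 and 400.4 CPM, also without overlap (0.49 ± 0.20, adjusted p = 0.0555), and with plain totals it passed. Aldoc in Müller glia was at 852, 929 and 767 CPM and 915, 1178 and 799 CPM, which overlapped (0.19 ± 0.18, adjusted p = 0.53). The aldolase share of Aldoc there was 81.8%, 84% and 83.2% in control and 78.6%, 76.4% and 71.1% in Phase I ROP, a difference of -7.64 percentage points without overlap (exact permutation p = 0.1, the smallest possible, adjusted p = 0.3).

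Gapdh fell in the 4 neuronal classes. In bipolar cells it was at 4576, 4705 and 4799 CPM in control mice and at 2379.9, 2433 and 2620.1 CPM in Phase I ROP mice (-0.92 ± 0.13, adjusted p = 6.73e-05). Amacrine cells had 3665, 3633 and 4129 CPM against 1943, 2256 and 2279 CPM (-0.82 ± 0.13, adjusted p = 0.000336). The groups lay far apart in both. Rods had 3004, 2807 and 2941 CPM against 1968, 2013 and 1777 CPM (-0.60 ± 0.23, adjusted p = 0.0457) and cones 3156, 4435 and 4922 CPM against 2695, 2458 and 2572 CPM (-0.71 ± 0.25, adjusted p = 0.046). These 2 calls were close to the threshold and were lost without either STZ replicate 2 or 3 and without control replicate 3, among others, with log2 fold changes from -0.62 to -0.48 in rods and from -0.87 to -0.48 in cones. In rods the call was also lost with plain totals (-0.33, adjusted p = 0.231), the replicate block, 1 fit of all 4 groups and no filter on low counts, down to -0.21. In cones it was lost under 6 alternatives, among them plain totals (-0.40, adjusted p = 0.208) and median-of-ratios scaling (-0.65, adjusted p = 0.0508). In Müller glia Gapdh was at 2376, 2744 and 2491 CPM against 2154, 2003 and 2125 CPM and did not pass (-0.27 ± 0.17, adjusted p = 0.327).

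Gapdh is a gene with many near-identical copies in the genome, and assignment of its reads is uncertain. It held 104226 UMIs over all mice. Other genes with a transcript at least 90% identical to it over 200 bases numbered 94 and held 214495. All UMIs of such a gene were counted, also for Peli2 (2722 UMIs), a different gene with such a transcript. With the copies added to it the fall was larger, for bipolar cells -1.38, for amacrine cells -1.25, for cones -1.02 and for rods -0.99, all past the threshold, and -0.63 in Müller glia (adjusted p = 0.0796). Pgk1 had 2 copies with 16% of its UMIs, and Ldhb 1 copy with 9.68%. With copies added, an alternative chosen after seeing the data, 5 pairs of gene and class passed that had not passed before, namely Pgk1 in rods (-0.73, adjusted p = 0.0223), Ldhb in bipolar cells (-0.81, adjusted p = 0.0398) and Müller glia (-0.82, adjusted p = 0.0217), Ldha in cones (-0.62, adjusted p = 0.0477) and Pfkp in rods. For Pfkp the UMIs added were those of Pitrm1, a different gene and not a copy.

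Pgk1 fell in bipolar cells from 721, 713 and 646 CPM to 367, 369 and 361 CPM (-0.92 ± 0.12, adjusted p = 4.19e-05). In amacrine cells the values were 464, 512 and 572 CPM and 303, 289 and 265 CPM (-0.85 ± 0.13, adjusted p = 0.000167), and in Müller glia 913, 1089 and 789 CPM and 610.0, 646 and 605 CPM (-0.57 ± 0.17, adjusted p = 0.0364). None of the 3 contrasts overlapped. In rods the groups overlapped, with 308, 360.1 and 169.7 CPM against 169, 208 and 199 CPM (-0.53 ± 0.26, adjusted p = 0.106). Cones had 544, 415 and 436 CPM against 317, 329.5 and 325 CPM and did not pass (-0.50 ± 0.28, adjusted p = 0.203). Pkm was at 1201 ± 133 CPM (SD, n = 3) in control rods and 1291 ± 54.1 CPM in Phase I ROP rods (0.10 ± 0.21, adjusted p = 0.717). Its log2 fold changes ran from -0.29 in amacrine cells to 0.10 in rods, and with plain totals all 5 lay above 0.

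Ldha fell most in bipolar cells, from 878, 827 and 778 CPM in control to 330.4, 301 and 396 CPM in Phase I ROP (-1.27 ± 0.13, adjusted p = 6.81e-06). Amacrine cells went from 751, 680.2 and 653 CPM to 348, 341 and 363 CPM (-0.99 ± 0.12, adjusted p = 3.06e-05). The highest Phase I ROP mouse was below the lowest control mouse in both. Müller glia had 1496, 1258 and 873 CPM against 749, 682 and 722 CPM (-0.74 ± 0.19, adjusted p = 0.0197), and in photoreceptors, where Ldha is highest, the values were 1857, 1168 and 1467 CPM against 1192, 1147 and 1282 CPM in rods (-0.31 ± 0.23, adjusted p = 0.287) and 1995, 1244 and 1807 CPM against 944, 1178 and 1201 CPM in cones (-0.60 ± 0.22, adjusted p = 0.0518). Rods overlapped and cones did not. Ldhb fell in amacrine cells from 249, 229 and 272 CPM to 88, 144 and 124 CPM (-1.07 ± 0.17, adjusted p = 0.000312). In rods it was at 70, 99.2 and 67.9 CPM, from 20, 27 and 28 UMIs, against 35, 35.4 and 37.5 CPM (-1.11 ± 0.30, adjusted p = 0.00745). Neither contrast overlapped, and in rods the call was lost with cells assigned by marker score, with leading-marker clusters only and without the filter on low counts (-1.32 to -0.71 over all alternatives). Müller glia had 412, 464 and 332 CPM against 289.9, 227 and 248 CPM, which did not overlap and did not pass (-0.63 ± 0.21, adjusted p = 0.0636). The share of Ldhb in the pair was 3.63%, 7.83% and 4.42% in control rods and 2.85%, 2.99% and 2.84% in Phase I ROP rods, and 4.54%, 7.18% and 7.93% against 8.04%, 9.19% and 10.7% in bipolar cells, both without overlap (exact permutation p = 0.1 each, adjusted p = 0.3). With classes by marker score the differences, -2.40 and 2.75 percentage points, became 0.37 and 0.205. In amacrine cells and Müller glia the Ldhb shares of the groups overlapped.

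**Figure D3:**
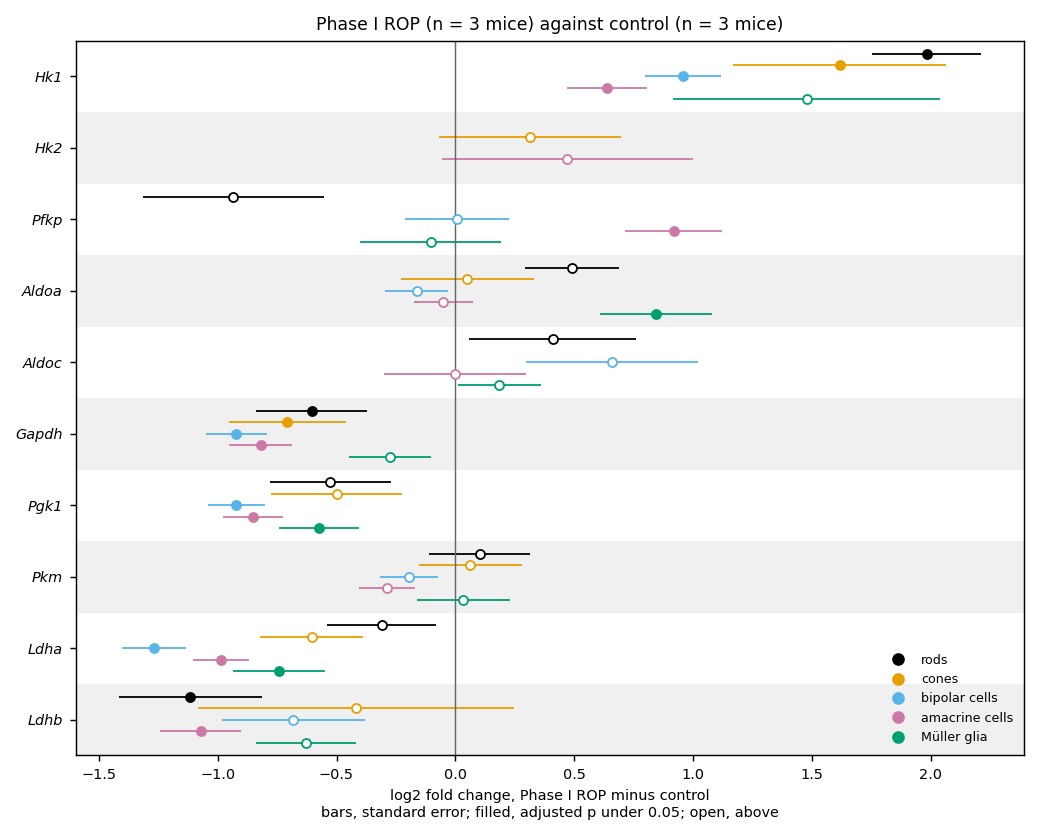
Log2 fold change of each gene in Phase I ROP against control (horizontal axis, above 0 is higher in Phase I ROP) by cell class, with standard errors over 3 against 3 mice. Filled points passed an adjusted p of 0.05 and pairs of gene and class with too few UMIs for the test have no point, and Hk1 lies to the right while Gapdh, Pgk1, Ldha and Ldhb lie to the left in all 5 classes.

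All 3 calls in Müller glia (Aldoa, Pgk1 and Ldha) were lost under DESeq2 (adjusted p = 0.0508 for Ldha, 0.102 for Aldoa and 0.141 for Pgk1), and 0 of 9 members were called there without STZ replicate 2 or 3 or control replicate 1 or 2. Other measures moved with the groups in each class. Of 20 genes of the response to tissue dissociation, 17 had every Phase I ROP mouse above every control mouse in rods, 15 in cones and 16 in bipolar cells, amacrine cells and Müller glia. Every Phase I ROP mouse was below every control mouse for 2 of the 20 in bipolar cells, 2 in amacrine cells, 1 in Müller glia and 0 in rods and cones. The list took 0.194 to 0.269% of UMIs in control rods and 0.521 to 0.813% in Phase I ROP rods, 0.221 to 0.319% against 0.734 to 1.09% in Müller glia, and 0.257 to 0.310% against 0.293 to 0.315% in bipolar cells. Of 12 rod markers, 10 were higher in every Phase I ROP mouse in rods, where they summed to 0.971 to 2.04% of UMIs in control and 3.67 to 5.21% in Phase I ROP. In cones 10 of the 12 were also higher in every Phase I ROP mouse, and free rod RNA was not subtracted there. The share of all genes that separated in this way is not given, so the counts for both lists lack a matching background. By the edgeR test, a different criterion, the genes called higher ran from 6% of those tested for Müller glia to 21.6% for bipolar cells. Whether either list exceeded the background was not tested. Rod markers in bipolar cells were at 0.112 to 0.211% against 0.189 to 0.283%, and with free rod RNA subtracted all 10 calls in bipolar and amacrine cells were kept. The part of these measures in the changes of the glycolysis genes was otherwise not tested.

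Whether the effect of Phase I ROP differed between rods and another class was tested as an interaction of class and STZ within mice, by edgeR's quasi-likelihood test. Both classes were fitted together with their own filter and scaling, so a difference here need not equal that of the fold changes from the separate fits. In bipolar cells 4 of the 10 members differed from rods, where 9.3% of 10765 genes did, in amacrine cells 3 of 10 (12.1% of 12735), and in Müller glia 0 of 9 (6.76% of 8068), with 1 of the 9, Ldha, at an unadjusted p under 0.05. Hk1 rose less than in rods, the difference being -1.16 ± 0.25 (adjusted p = 0.00694) on the log2 scale in bipolar cells and -1.27 ± 0.26 (adjusted p = 0.00205) in amacrine cells. Ldha had a lower fold change than in rods, the difference being -1.13 ± 0.18 (adjusted p = 0.000773) in bipolar cells and -0.63 ± 0.19 (adjusted p = 0.0305) in amacrine cells, and the difference in Müller glia was -0.60 ± 0.22 (adjusted p = 0.0971). In bipolar cells Gapdh also had a lower fold change, by -0.46 ± 0.14 (adjusted p = 0.0442), and the difference for Aldoa was -0.79 ± 0.21 (adjusted p = 0.021). Pfkp had the widest gap, 1.89 ± 0.40 (adjusted p = 0.00231) between amacrine cells and rods. With only clusters that had a marker of their class among their 10 leading genes, 1 member was left in each of bipolar and amacrine cells, and leaving out any 1 mouse left 1 or 2 in bipolar cells and 2 or 3 in amacrine cells. The bipolar differences were then always smaller in size than with all mice. They ran from -1.09 to -0.88 for Hk1, -1.10 to -0.76 for Ldha, -0.70 to -0.50 for Aldoa and -0.36 to -0.23 for Gapdh.

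**Figure D4:**
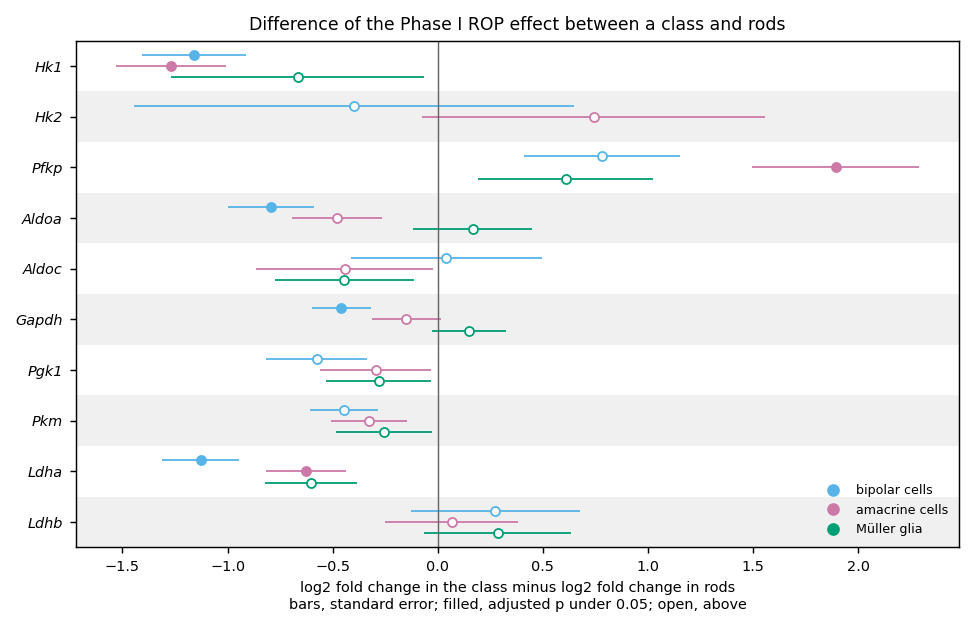
Difference of the log2 fold change of Phase I ROP against control between a class and rods (horizontal axis, below 0 means a lower fold change than in rods), with standard errors over 6 mice. Filled points passed an adjusted p of 0.05, which are Hk1 and Ldha in bipolar and amacrine cells, Aldoa and Gapdh in bipolar cells, and Pfkp in amacrine cells.

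To relate these changes to the rest of the pathway, 21 other glycolysis enzymes and 12 regulators and carriers of lactate and pyruvate were counted in the same tests. Of the other enzymes, 1 of 8 tested rose (Bpgm, named after its value was seen) and 3 fell in rods, where 21% and 22.5% of all genes did. Falls alone were seen for 2 of 8 in Müller glia (5.19% of all genes), 3 of 8 in cones (8.35%), 4 of 10 in amacrine cells (20.7%) and 4 of 9 in bipolar cells (23.4%). Eno1 and its near-identical copy Eno1b are counted separately among the falls in each class. Tpi1, the triose phosphate isomerase just before Gapdh, went from 332 ± 121 CPM (SD, n = 3) to 77.9 ± 21.2 CPM in rods (-2.09 ± 0.29, adjusted p = 4.83e-05), and fell also in cones (-1.27), bipolar cells (-0.88) and amacrine cells (-0.84). Eno1, enolase, and its near-identical copy Eno1b were lower in all 5 classes, for Eno1 from -0.58 in rods to -1.15 in bipolar cells. In Müller glia Eno1 was at 10762 ± 1204 CPM in control and 6269 ± 916 CPM in Phase I ROP. Gpi1, which turns glucose 6-phosphate to fructose 6-phosphate, fell in bipolar cells (-0.50) and amacrine cells (-0.51).

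Of the regulators and carriers, 2 of 7 tested rose (Slc16a1 and Pfkfb2, the latter named after its value was seen) and 1 fell in rods, 0 of 3 in cones and 0 of 4 in Müller glia passed by edgeR (2 of each at an unadjusted p under 0.05), 1 of 7 rose and 2 fell in bipolar cells, and 2 of 8 rose and 2 fell in amacrine cells. Shares of all genes called higher and lower were 21% and 22.5% in rods, 10.6% and 8.35% in cones, and 6% and 5.19% in Müller glia. They were 21.6% and 23.4% in bipolar cells and 18.2% and 20.7% in amacrine cells. Slc16a1, a carrier of lactate and pyruvate, rose from 11 ± 10.5 CPM to 90.9 ± 28.1 CPM in rods (2.98 ± 0.52, adjusted p = 0.000279), and by 2.48 in bipolar cells and 2.44 in amacrine cells. Mpc1 and Mpc2, the mitochondrial pyruvate carrier, fell in bipolar cells (-0.76 and -1.22) and amacrine cells (-0.73 and -1.36). Pfkfb3, which makes an activator of phosphofructokinase, was lower in rods (-2.44 ± 0.57, adjusted p = 0.00279) and higher in amacrine cells (0.93 ± 0.27, adjusted p = 0.0157).

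Promoters are shown for Ldha, Pgk1 and Gapdh, which all fell in bipolar and amacrine cells, and for Hk1, which rose, with the letters searched in capitals. The windows run from 250 bases before to 50 after a transcript start (RefSeq, GRCm38.p6, 5′ to 3′ on the strand of the gene). The motifs were ACGTG, a core to which hypoxia-inducible factors bind, and GCGTG, which contains the same CGTG, on both strands, so that CACGTG counts on each strand. At least 1 match is present in 43.8% of 32851 promoters, and in 13 of the 16 windows of the 10 genes. The windows are not independent, since the Aldoa windows with a match overlap and share that match, and the difference was not tested.
Ldha: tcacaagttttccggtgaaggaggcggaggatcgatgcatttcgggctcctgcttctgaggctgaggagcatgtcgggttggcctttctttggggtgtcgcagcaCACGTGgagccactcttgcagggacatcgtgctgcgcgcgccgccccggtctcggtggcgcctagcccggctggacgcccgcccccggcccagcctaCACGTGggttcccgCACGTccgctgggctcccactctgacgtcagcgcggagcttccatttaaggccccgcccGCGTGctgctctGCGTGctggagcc
Pgk1: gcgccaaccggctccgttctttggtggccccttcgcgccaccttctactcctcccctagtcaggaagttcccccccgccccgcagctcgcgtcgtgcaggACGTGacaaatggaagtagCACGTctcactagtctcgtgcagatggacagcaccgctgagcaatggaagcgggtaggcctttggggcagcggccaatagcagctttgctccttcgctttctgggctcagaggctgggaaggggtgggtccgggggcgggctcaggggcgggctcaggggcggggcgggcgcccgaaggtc
Gapdh: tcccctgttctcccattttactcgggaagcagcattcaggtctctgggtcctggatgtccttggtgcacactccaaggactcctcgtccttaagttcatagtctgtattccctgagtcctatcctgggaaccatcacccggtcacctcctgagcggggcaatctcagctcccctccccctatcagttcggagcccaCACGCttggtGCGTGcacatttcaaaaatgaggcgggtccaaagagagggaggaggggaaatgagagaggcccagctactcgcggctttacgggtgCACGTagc
Hk1 upstream: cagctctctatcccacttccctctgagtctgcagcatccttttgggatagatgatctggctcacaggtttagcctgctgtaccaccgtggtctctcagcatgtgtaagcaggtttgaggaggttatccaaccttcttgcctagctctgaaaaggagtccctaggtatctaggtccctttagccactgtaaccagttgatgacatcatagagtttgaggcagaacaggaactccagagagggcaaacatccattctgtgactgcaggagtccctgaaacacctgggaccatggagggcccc
Hk1 downstream: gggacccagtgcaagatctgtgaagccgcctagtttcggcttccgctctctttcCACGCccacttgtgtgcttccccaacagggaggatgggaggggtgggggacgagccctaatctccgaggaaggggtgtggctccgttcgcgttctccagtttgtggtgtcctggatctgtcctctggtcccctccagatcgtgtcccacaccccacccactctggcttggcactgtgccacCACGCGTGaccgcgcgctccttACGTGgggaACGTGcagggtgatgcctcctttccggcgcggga
The Ldha window (GRCm38.p6 chr7:46845554-46845853, plus strand) held 7 matches, as 0.3% of all promoters did or more, and a second Ldha start held 2. Pgk1 (chrX:106186850-106187149, plus strand) held 2 and Gapdh (chr6:125165724-125166023, minus strand) 3. Of the pair of Hk1 starts, the upstream one (chr10:62379859-62380158, minus strand) held 0 and the downstream one (chr10:62340372-62340671, minus strand) held 5. Of the called members not shown, Ldhb, which fell in rods and amacrine cells, held 1. Pfkp, which rose in amacrine cells, held 4, and the windows of Aldoa, which rose in Müller glia, held 1, 1 and 0. The windows cover the first bases of each transcript as well as its promoter, and a match is a run of letters, not a bound site.

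To ask how the LCPUFA diets bear on these enzymes, the ω-6 diet (n = 3 mice) was compared with the ω-3 diet (n = 2 mice), both in Phase I ROP. No member passed the test in any class. Of 50 pairs of gene and class, 0 were called by the quasi-likelihood test of edgeR after Benjamini-Hochberg adjustment, 1 had an unadjusted p under 0.05, and DESeq2 called 0, with 5 of its adjusted values not given. Across all genes 0% were called in each class, with 1373 of 12587 genes at an unadjusted p under 0.05 for rods, 710 of 9145 for cones, 506 of 11929 for bipolar cells, 1309 of 13438 for amacrine cells and 300 of 7531 for Müller glia. Over all genes DESeq2 called 25 for rods, 10 for amacrine cells and 2 for each other class, and with a block on replicate number edgeR called 31 for rods, 29 for cones, 15 for bipolar cells, 32 for amacrine cells and 4 for Müller glia, of which 0 were members. The members' log2 fold changes (ω-6 minus ω-3) lay above 0 for 10 of 10 genes in rods and cones, 6 for bipolar cells, 7 for amacrine cells and 8 for Müller glia, with medians of 0.20, 0.17, 0.04, 0.14 and 0.18. These genes share cells and scaling, and the median of all genes in rods moved from 0.01 to -0.11 with plain totals.

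Pgk1 in Müller glia was the pair with the smallest p. It was at 477 and 445 CPM on the ω-3 diet and 627, 857 and 627 CPM on the ω-6 diet, which did not overlap (0.61 ± 0.21, adjusted p = 0.989). In rods Gapdh was at 1747 and 1636 CPM against 1769, 2135 and 2114 CPM (0.25 ± 0.13, adjusted p = 0.503) and Ldha at 1334 and 1191 CPM against 1358, 1415 and 1468 CPM (0.16 ± 0.13, adjusted p = 0.653). Neither overlapped, and neither passed. Hk1, which among the 10 genes had the largest difference between Phase I ROP and control, had 330.3 and 399.7 CPM on the ω-3 diet and 294, 413 and 411 CPM on the ω-6 diet in rods (0.03 ± 0.17, adjusted p = 0.968), which overlapped. In amacrine cells Ldhb was at 118 and 113 CPM against 132, 165 and 145 CPM (0.35 ± 0.17, adjusted p = 0.515). Aldoc in Müller glia was at 493 and 596 CPM and 587, 770.1 and 606 CPM (0.27 ± 0.21, adjusted p = 0.989). Standard errors over the 50 pairs ran from 0.12 to 0.72.

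Isozyme shares overlapped between the diets in each of the 15 combinations of pair and class, and 3 against 2 mice cannot go below an exact permutation p of 0.2. Hk2 took 27.1% and 34.3% of the hexokinase UMIs in cones on the ω-3 diet and 36.6%, 26.9% and 29.8% on the ω-6 diet. Aldoc took 64.1% and 68.3% of the aldolase UMIs in Müller glia on the ω-3 diet and 66.7%, 70.9% and 69.4% on the ω-6 diet. In Müller glia Hk2 took 17.5% and 10.6% on the ω-3 diet and 31%, 14.3% and 45.8% on the ω-6 diet, so that the shares of cones and Müller glia overlapped on the ω-6 diet.

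**Figure D5:**
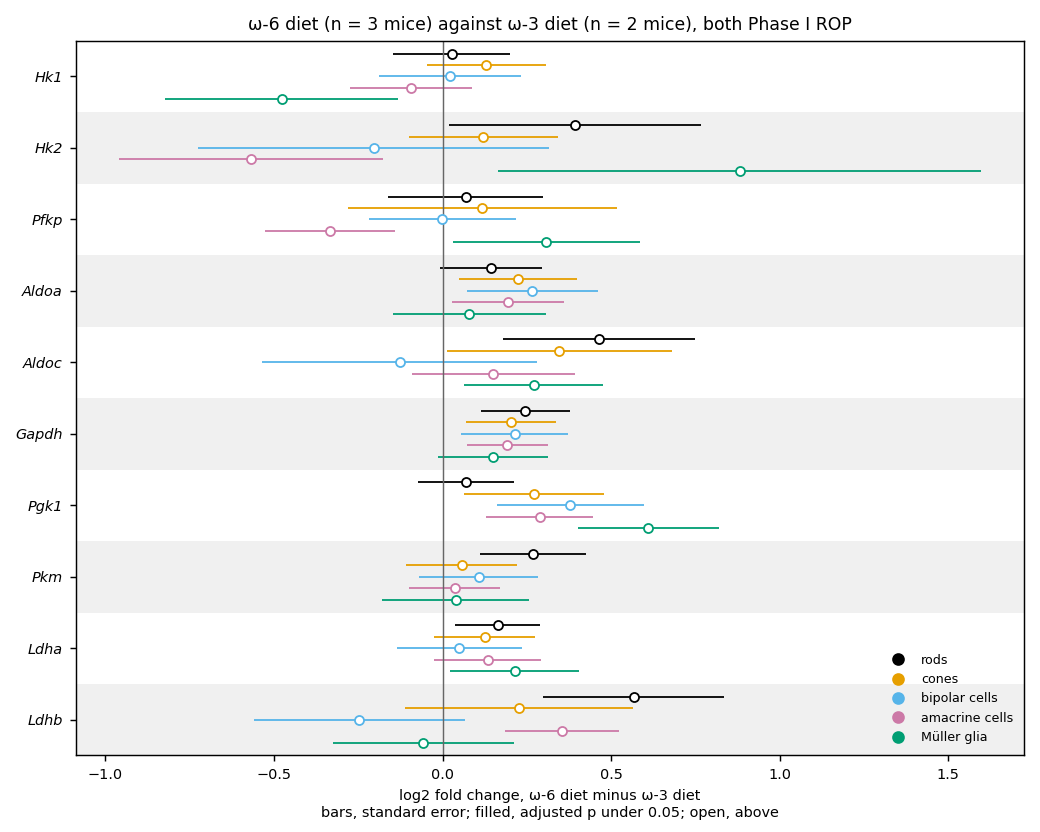
Log2 fold change of each gene in the ω-6 diet group against the ω-3 diet group (horizontal axis, above 0 is higher on the ω-6 diet) by cell class, with standard errors over 3 against 2 mice, all with Phase I ROP. All points are open, since 0 of the 50 passed an adjusted p of 0.05, and the farthest from 0 is Hk2 in Müller glia at 0.88.

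The genes whose pattern was most like that of each member were taken as the 3 with the highest Pearson correlation of log2 CPM over 55 sums of a class in a mouse, among 5871 genes. The sums share libraries and depth, so r is a description. Aldoc went with Kdr (r = 0.921), Car2 (0.913) and Gpm6b (0.910), Hk1 with Tmem229b (0.933), Lpgat1 (0.928) and Ntm (0.914), and Pkm with Cacna2d4 (0.907), Abhd17a (0.899) and Unc119 (0.892). Ldha followed 1810009A15Rik (0.880), Gpx4 (0.879) and Gpx4-ps2 (0.879). Ldhb followed Nlgn1 (0.843), Gm2026 (0.818) and Wdr1 (0.817), Pgk1 followed Hmgn3 (0.885), Maged1 (0.881) and Brk1 (0.825), and Pfkp followed Maged1 (0.842), Scd2 (0.827) and Gstm5 (0.821). For Aldoa the nearest were Icmt (0.836), Ctbp2 (0.833) and Dctn1 (0.833). The nearest genes to Gapdh were Gm43027 (0.854), Gm7336 (0.820) and Gm3839 (0.820), of which the last pair are among its near-identical copies. Hk2 did not pass the filter in each class and was not compared.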

How the data were processed

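Single retinal cells of 11 mice were measured by inDrop. Counts are UMIs per gene and cell as the authors deposited them. Per the study's methods, reads were assigned with bcbio-nextgen and umis and mapped with Rapmap to the mouse transcriptome (GENCODE on GRCm38), and barcodes with few reads were excluded. The submitters' processing notes name the builds GRCm38 p6 and mm10.

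Cells with more than 300 genes and genes in more than 10 cells were clustered with Seurat 5.3.0 in R 4.3.3 (2000 variable genes, 75 principal components, resolution 0.2), after the study's settings. Clusters were named from marker genes. No doublet caller was run. UMIs were summed per mouse and class, and classes with at least 10 cells in each mouse were tested with edgeR 4.0.16 (quasi-likelihood test, TMM, filter on low counts, Benjamini-Hochberg adjustment, threshold 0.05) over all genes, separately for each comparison. Levels set across the 2 comparisons were scaled separately. Standard errors are the log2 fold change divided by the square root of F. Replicates are single mice, each with its own library, so p-values set a difference against the spread between mice and libraries together. DESeq2 1.42.0 was an alternative. Shares were compared by two-sided exact permutation tests (scipy 1.17.1). Near-identical copies were genes with a transcript at least 90% identical over at least 200 bases (BLAST+ 2.17.0), and all UMIs of such a gene were added. Tables and figures were made with Python 3.11.15, pandas 2.3.3, numpy 2.4.6 and matplotlib 3.10.9. Scripts were tested on simulated data.

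Totals were 2565568 to 6517776 UMIs per mouse, and intervals cover counting error only. The members and gene lists were chosen with earlier results of these data known. All 10 members are named, as are genes of the other lists called in at least 2 classes of 1 comparison, and for each member the 3 genes of highest correlation. Alternatives were another test, scaling, filters on genes and cells, class naming, clustering without glycolysis genes, thinning, subtraction of free rod RNA, 1 fit of all groups, a block on replicate number and leaving out each mouse.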

Additional observations from a re-analysis of the deposited data

Results flagged for a closer look

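The effect of Phase I ROP on 5 members differed between rods and another class by the interaction test in edgeR (adjusted p under 0.05). In amacrine cells minus rods, on the log2 scale, the difference was -1.27 for Hk1, 1.89 for Pfkp and -0.63 for Ldha. In bipolar cells minus rods it was -1.16 for Hk1, -0.79 for Aldoa, -0.46 for Gapdh and -1.13 for Ldha. Each of these bipolar values was smaller in size whenever a single mouse was left out, with -0.70 to -0.50 for Aldoa and -0.36 to -0.23 for Gapdh. No group had more than 3 mice, so single outlying mice were not tested for.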

How the results depend on the processing

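No called member changed direction under any alternative run. Counts of members called in Phase I ROP against control moved as follows. Near-identical copies raised the counts from 3 to 5 in rods, 2 to 3 in cones, 4 to 5 in bipolar cells and 3 to 4 in Müller glia, and plain totals raised 4 to 5 in bipolar cells. The gain in rods includes Pfkp, to which UMIs of Pitrm1, a different gene and not a copy, were added. The count in rods was 3, and 2 to 5 when single mice were left out (5 without control replicate 2). In cones 2 became 4 with classes by marker score, 1 with median-of-ratios scaling, without the filter on low counts, with plain totals or with the replicate block, 0 of 5 tested after thinning to equal depth, and 1 to 2 without single mice (1 without STZ replicate 2, STZ replicate 3 or control replicate 3). In Müller glia 3 became 0 with DESeq2, 1 without the filter or with plain totals, and 0 to 2 without single mice. The ranges without single mice were 4 to 5 in bipolar cells and 5 to 6 in amacrine cells, and 0 for the diets in each class. Plain totals and added copies were chosen after seeing the data. Of members whose effect differed from rods, 3 in amacrine cells became 1 with leading-marker clusters only and 5 without the filter, with 2 to 3 without single mice, and 4 in bipolar cells became 1 with leading-marker clusters and 1 to 2 without single mice. The cause of these moves was not tested. Median isozyme shares by class moved by less than 1 SD over mice in all 84 values under other alternatives and all 165 without single mice. Of 168 values for differences in shares between groups under other alternatives, 7 moved by more. With classes by marker score the difference between Phase I ROP and control in the Hk2 share went from -9.33 to -6.52 percentage points in rods and from -17.9 to -5.54 in cones, that in the Aldoc share of rods from -0.832 to 3.00, and that in the Ldhb share from -2.40 to 0.37 in rods and 2.75 to 0.205 in bipolar cells. Between the diets the Ldhb share in cones went from 0.288 to -0.418, and with rod RNA subtracted the Hk2 share in Müller glia from 16.3 to 36.7. With the replicate block the counts were 2 for rods, 1 for cones, 4 for bipolar cells, 6 for amacrine cells and 4 for Müller glia, and 0 for the diets. Deviations of mice with the same number in the first comparison had correlations of -0.0517 to 0.141. With 3 mice per group these values do not settle whether a number marks a shared litter or preparation. For the diets, which share 2 numbers, the correlations were 0.142 to 0.194, with the same value for both numbers in a class. The block took the calls over all genes from 0 to 31 in rods, 29 in cones, 15 for bipolar cells, 32 for amacrine cells and 4 for Müller glia. Control cones numbered 13 to 46 per mouse, which limits the depth of that class.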
